A study of Mus musculus with 6 samples.

Results

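The genes described here encode the proteins of the mitochondrial ribosome, in mouse RAW264.7 macrophages given drug-loaded nanoparticles or buffer. Members were all rows of the deposited expression table whose symbol is Mrpl or Mrps followed by a number, 78 of 22105 named gene rows: 49 Mrpl genes for the large subunit and 29 Mrps genes for the small subunit. All 78 passed the filter on low values, a mean of at least 1 FPKM (fragments scaled by transcript length and library size) over the 6 libraries, and all are annotated as protein coding. RAW264.7 is a macrophage-like line derived from a virally induced tumour of a mouse. The control group was 3 libraries of cells given phosphate buffered saline (PBS), and the treated group was 3 libraries of cells given CM-PEG-PLGA@DOX/R848 nanoparticles at an amount equal to 2 µg/mL DOX, both for 24 h. DOX is the DNA-damaging drug doxorubicin and R848 is resiquimod, a Toll-like receptor agonist. The labels do not spell out CM, and no group with empty particles or with 1 drug alone is analysed here, so the effects of carrier and drugs cannot be told apart.

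A mitochondrion makes a small set of respiratory chain subunits from its own DNA, and a ribosome of its own translates them. The RNA of that ribosome comes from mitochondrial DNA, whereas every protein of it is encoded in the nucleus, made in the cytosol and imported. The small subunit reads the messenger RNA, the large subunit forms the peptide bond, and many of the proteins have no counterpart in bacteria. Macrophages that are activated through Toll-like receptors are known to shift their energy metabolism away from respiration.

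The libraries summed to 451056 to 469220 FPKM, and their depth in fragments is unknown. All 8 macrophage markers were detected, with a summed level of 2760 to 2852 FPKM in the PBS libraries and 1237 to 1304 in the nanoparticle libraries. Lyz2 (1482 to 1539.6 FPKM in PBS, 389 to 406 with nanoparticles) and Csf1r (291 to 305, then 47.4 to 50.6) made up most of that fall, whereas Adgre1 was higher (1.61 to 1.96, then 11.2 to 13.4). Fcgr1 was between 33.7 and 37.3 FPKM in PBS and between 38.6 and 41.4 with nanoparticles. By contrast, the markers of T, B, epithelial, fibroblast and endothelial cells each summed to at most 1.03 FPKM. The part of that marker shift in the results below was not tested. Nothing in the labels says that the replicates were separate cultures, so each p-value reflects the spread among these libraries alone, and that spread may be technical. In bulk RNA, a lower level cannot be told apart from fewer cells of a kind or from a different RNA content per cell.

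The family did not move as a block. With limma on log2(FPKM + 1) and Benjamini-Hochberg adjustment over all 10229 genes tested, 25 members were higher and 27 lower in the nanoparticle libraries at an adjusted p under 0.05, and 26 did not pass. The response of these cells was broad: 77.2% of all genes tested passed, 42.7% higher and 34.5% lower, and the 52 members called are 66.7% of 78. The groups did not overlap for 54 members, against 78.8% of all genes tested. The median log2 fold change on the log2(FPKM + 1) scale was -0.06 over the members and 0.08 over all genes tested. With upper quartile scaling 19 members were higher and 37 lower, and with median-ratio scaling 17 and 38, because these scalings move the median of all genes to -0.02 and -0.04. With a correction of each library for GC content and transcript length, added after seeing the data, 16 were higher and 48 lower. The shares of all genes called under these scalings and this correction are not given. The counts in those settings therefore cannot be set against the whole table.

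Few changes within the family were large. The SD of the log2 fold changes was 0.51 over the members, against 0.75 over the 5440 tested genes within the members' range of PBS levels. No member rose 2-fold or more and 3 fell by that much, Mrpl12, Mrpl3 and Mrpl42. Of the 5440 genes in that range, 384 rose and 492 fell at least 2-fold. Their median PBS level was 25.3 FPKM, against 43.7 FPKM for the members, so the sets are not matched in level. At a change of 1.5-fold, 7 of 78 members rose and 14 fell, against 948 and 1102 of those 5440 genes.

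**Figure D1:**
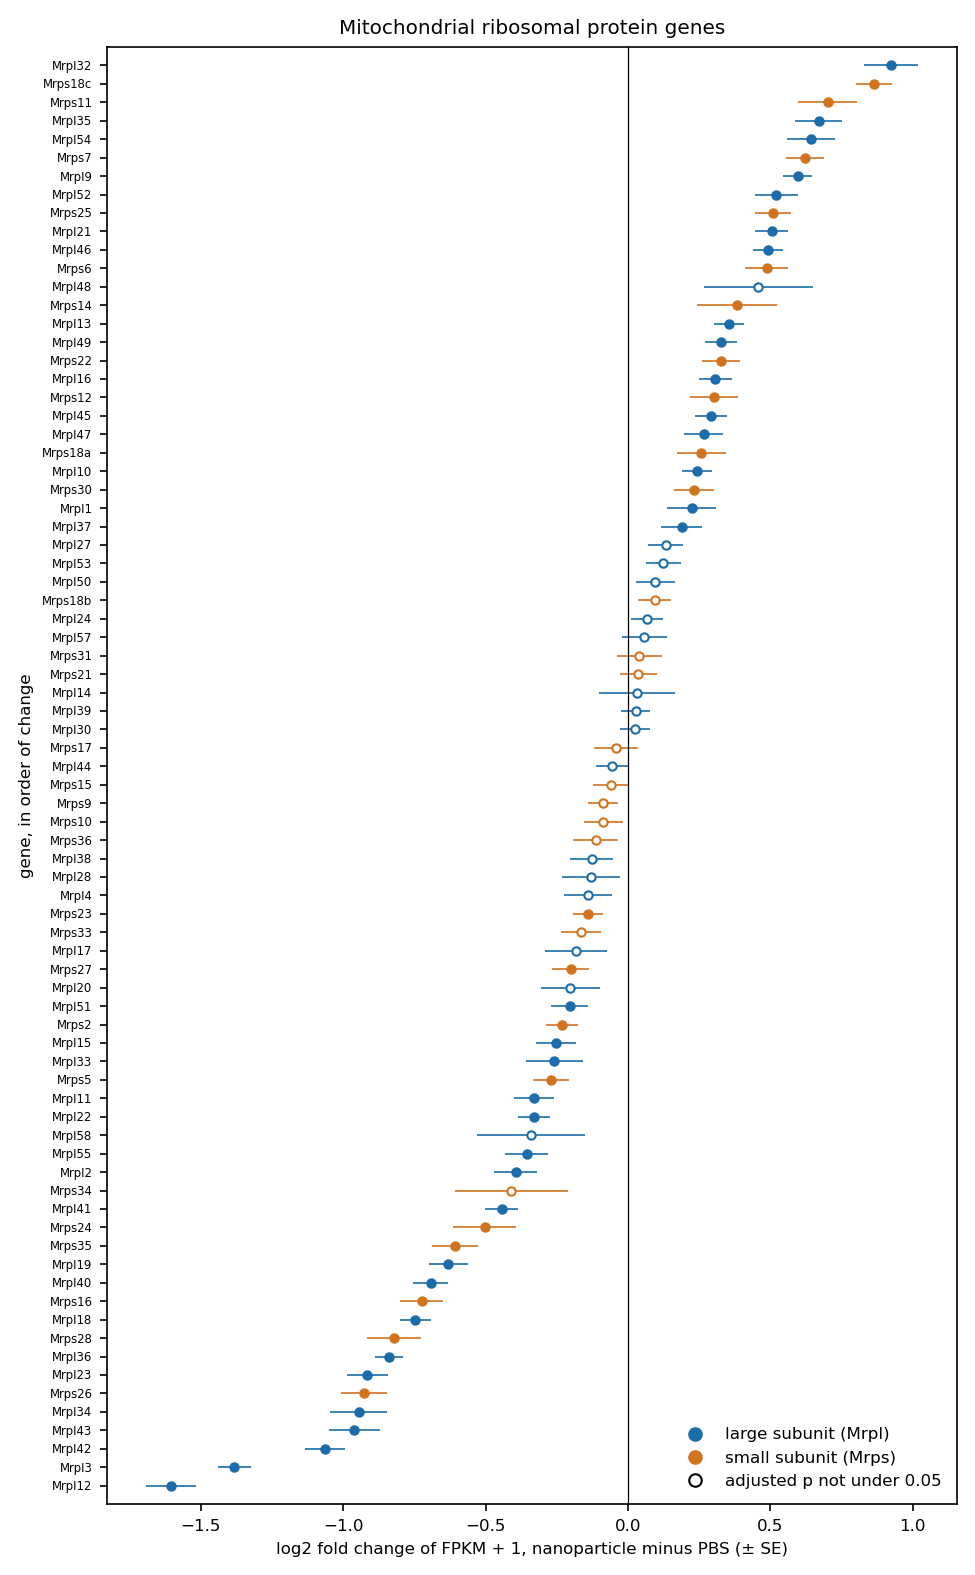
Log2 fold change of FPKM + 1 (nanoparticle minus PBS, x axis, with its standard error) for all 78 genes in order of change, large subunit genes in blue and small subunit genes in orange, open points for genes whose adjusted p is not under 0.05. Both subunits spread over both sides of 0, from -1.61 for Mrpl12 to 0.92 for Mrpl32.

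Among the large subunit genes 15 were higher, 18 lower and 16 not called, with a median log2 fold change of -0.05. Among the small subunit genes 10 were higher, 9 lower and 10 not called, with a median of -0.06. The groups did not overlap for 34 large and 20 small subunit genes. Under upper quartile scaling the counts were 13 higher and 23 lower in the large subunit and 6 higher and 14 lower in the small one, so the near balance within each subunit holds for the values as deposited and not for that scaling. Symbols do not follow the structure in 3 cases: the products of Mrps18a and Mrps30 sit in the large subunit, and that of Mrps36 belongs to the 2-oxoglutarate dehydrogenase complex. Placed by structure, 17 of 51 large subunit genes were higher and 18 lower, and 8 of 26 small subunit genes were higher and 9 lower, with medians of 0.02 and -0.07.

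The summed level, unlike the counts, differed between the subunits. The large subunit genes summed to 2594, 2602 and 2478 FPKM in PBS replicates 1, 2 and 3, and to 2404, 2315 and 2116 in the nanoparticle libraries. The small subunit genes summed to 1254, 1298 and 1193 FPKM in PBS and to 1388, 1373 and 1249 with nanoparticles. The large sum was below every PBS value in each nanoparticle library, whereas the ranges of the small sum overlapped. Compared by replicate number, the small sum was higher with nanoparticles in 3 of 3 pairs. A sum is weighted by abundant genes, and the median FPKM over genes had a lower mean in both subunits. It was 46.5 ± 2.14 in PBS and 40.4 ± 1.32 with nanoparticles for the large subunit, without overlap. For the small subunit it was 39.3 ± 2.18 and 35.9 ± 3.87, with overlapping ranges (SD, n = 3 each).

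Dividing the large sum by the small sum within each library removes any scaling between libraries. The ratio was 2.07, 2.01 and 2.08 in the PBS libraries and 1.73, 1.69 and 1.69 in the nanoparticle libraries, or 2.05 ± 0.0389 against 1.70 ± 0.0242 (SD, n = 3 each). The groups were far apart relative to their spread. By structure the ratio was 2.35 ± 0.0357 and 1.98 ± 0.0366 (SD, n = 3 each). No p-value is given for a sum over the members, since they were chosen with results known.

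The losses of 5 abundant genes were about as large as the net fall of the large sum. The mean of Mrpl12 fell by 93.7 FPKM, and Mrpl42, Mrpl3, Mrpl18 and Mrpl34 changed by -66.9, -44.9, -42.3 and -33.8 FPKM. These 5 genes, taken for their losses after values were seen, summed to -282 FPKM, and the net change of all large subunit genes was -279.5 FPKM. The remaining losses and the gains of 236 FPKM in the large subunit about balanced. Without the 5 genes the ratio was 1.64 ± 0.0301 in PBS and 1.53 ± 0.0247 with nanoparticles (SD, n = 3 each), with groups that still did not overlap. Taking out genes picked for their losses makes the gap smaller by construction. In the small subunit, which also enters the ratio, gains of 189 FPKM exceeded losses of -101 FPKM in the values as deposited. Exons of Mrpl18 overlap 141 bases of Tcp1 on the opposite strand, and the use of strand in counting is not stated, so its level is uncertain.

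**Figure D2:**
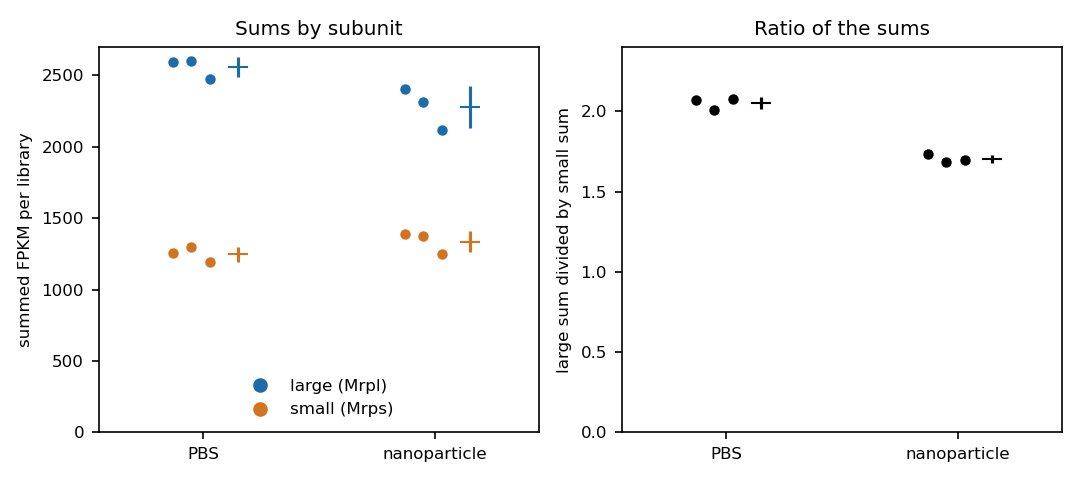
Left, FPKM summed over large (blue) and small (orange) subunit genes in each library (points) with mean and SD beside them; right, the large sum divided by the small sum in each library. The ratio lies between 2.01 and 2.08 in PBS and between 1.69 and 1.73 with nanoparticles.

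The stalk of the large subunit, which recruits translation factors, held the gene with the largest fall. Mrpl12, the counterpart of the bacterial stalk protein, also known to bind the mitochondrial RNA polymerase, lies on chromosome 11, 120484613 to 120489065 (GRCm38, plus strand). It stood at 139.7, 144 and 133 FPKM in PBS and at 51.1, 45.3 and 39.1 FPKM with nanoparticles. It was the most abundant member in PBS, and every nanoparticle library lay far below every PBS library. The mean was 3.07-fold lower (log2 fold change -1.61 ± 0.0879 SE, adjusted p = 1.2e-07).

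Of the proteins at the base of the stalk 1 rose and 1 fell. Mrpl10, which anchors the stalk, had 43.1, 43.7 and 44.0 FPKM in PBS and 54.2, 51.3 and 49.8 with nanoparticles, a log2 fold change of 0.24 (adjusted p = 2.2e-03). Its groups did not overlap, and its call was lost with median-ratio scaling and after correction for GC content and length. Mrpl11 fell by 0.33 on the log2 scale (adjusted p = 1.8e-03), with groups that did not overlap.

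Mrpl3, a core protein close to the site of peptide bond formation, lies on chromosome 9, 105053239 to 105079888 (GRCm38, plus strand). Its levels were 71.9, 71.2 and 72.4 FPKM in PBS and 27.5, 28.1 and 25.2 with nanoparticles. The replicates were close within both groups and the groups wide apart (log2 fold change -1.38 ± 0.0574 SE, adjusted p = 1.9e-08).

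Mrpl42, a protein without bacterial counterpart, lies on chromosome 10, 95480805 to 95501940 (GRCm38, minus strand). It gave 135, 128 and 119 FPKM in PBS and 55.4, 62.4 and 63.0 with nanoparticles (log2 fold change -1.06 ± 0.0698 SE, adjusted p = 4.3e-07). A pseudogene with at least 95% identity to it is annotated, so reads may be shared. No such copy is a row of the table.

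Mrpl43 and Mrpl34 completed the 5 largest falls in the large subunit. Mrpl34, the counterpart of a short bacterial protein, went from 76.3, 69.5 and 63.0 FPKM in PBS to 41.4, 33.7 and 32.1 (log2 fold change -0.95, adjusted p = 1.3e-05). Mrpl43, a mitochondria-specific subunit, went from 44.5, 47.4 and 41.3 FPKM to 24.1, 23.8 and 19.3 (log2 fold change -0.96, adjusted p = 5.2e-06). Neither gene's groups overlapped. Exons of Mrpl43 overlap 507 bases of the helicase gene Twnk on the opposite strand, and the use of strand in counting is not stated, so its level is uncertain.

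The large subunit also held the gene with the largest rise. Mrpl32, a protein whose maturation by the inner membrane m-AAA protease is a known step of ribosome assembly, lies on chromosome 13, 14608184 to 14613165 (GRCm38, minus strand). It stood at 11.3, 11.7 and 14.1 FPKM in PBS and at 22.2, 27.1 and 23.7 with nanoparticles. Every treated library lay above every PBS library (log2 fold change 0.92 ± 0.0962 SE, adjusted p = 1.2e-05). A near-identical pseudogene of Mrpl32 is annotated, so its level is uncertain.

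Mrpl9, which has a bacterial counterpart, became the most abundant large subunit member with nanoparticles. It rose from 74.8, 74.4 and 69.7 FPKM to 112, 111 and 109 (log2 fold change 0.60 ± 0.0517 SE, adjusted p = 3.3e-06). Mrpl52, without bacterial counterpart, rose from 65.2, 73.8 and 63.3 FPKM to 105.6, 95.3 and 90.6 (log2 fold change 0.52, adjusted p = 1.4e-04). Both had groups that did not overlap.

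Mrpl35 and Mrpl54 rose as well. Mrpl35, with a bacterial counterpart, had 14.2, 12.7 and 13.3 FPKM in PBS and 23.1, 23.4 and 19.5 with nanoparticles (log2 fold change 0.67, adjusted p = 3.6e-05). Mrpl54, without one, had 52.5, 52.7 and 47.0 FPKM in PBS and 87.5, 82.0 and 70.5 with nanoparticles (log2 fold change 0.64, adjusted p = 6.0e-05). Nanoparticle replicate 3 was the lowest treated library for both, yet above every PBS library.

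Other large subunit genes that fell were Mrpl23, Mrpl36, Mrpl18, Mrpl40, Mrpl19, Mrpl41, Mrpl2, Mrpl55, Mrpl22, Mrpl11, Mrpl33, Mrpl15 and Mrpl51, with log2 fold changes from -0.92 to -0.21. Those that rose were Mrpl21, Mrpl46, Mrpl13, Mrpl49, Mrpl16, Mrpl45, Mrpl47, Mrpl10, Mrpl1 and Mrpl37, from 0.50 to 0.19. Of the genes in these lists 7 lost their call in some setting. Mrpl47 and Mrpl10 lost it with median-ratio scaling, and Mrpl47, Mrpl10 and Mrpl16 after correction for GC content and length. Mrpl1 lost it with upper quartile and median-ratio scaling and reversed to -0.011 under that correction. Mrpl37 lost its call with both of those scalings and the correction. With 1 library left out, Mrpl1 was at 0.16 without PBS replicate 1, 0.24 without PBS replicate 3, 0.17 without nanoparticle replicate 2 and 0.21 without nanoparticle replicate 3, and no longer passed. Mrpl37 did not pass at 0.15 without PBS replicate 2, 0.18 without PBS replicate 3, 0.14 without nanoparticle replicate 1 or 0.17 without nanoparticle replicate 2. Mrpl33 did not pass at -0.26 without PBS replicate 1, -0.21 without PBS replicate 2 or -0.13 without nanoparticle replicate 3, nor Mrpl51 at -0.18 without PBS replicate 2.

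The ring of proteins at the exit of the peptide tunnel, where the new chain meets the inner membrane, was mixed: of Mrpl17, Mrpl22, Mrpl23, Mrpl24, Mrpl32 and Mrpl47, 2 rose, 2 fell and 2 did not pass. That grouping, like the stalk, was made after values were seen. Exons of Mrpl47 overlap 452 bases of Actl6a and 616 bases of Ndufb5 on the opposite strand. These neighbours averaged 63.1 and 62.7 FPKM, against 12.4 FPKM for Mrpl47, so its level is uncertain.

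The smallest changes in the large subunit were those of Mrpl30, among its most abundant genes, and Mrpl39. Mrpl30 had 95.3, 95.9 and 90.5 FPKM in PBS and 97.5, 97.4 and 91.5 with nanoparticles, and its ranges overlapped (log2 fold change 0.02, adjusted p = 0.69). Mrpl39 had 26.6, 26.6 and 26.3 FPKM in PBS and 27.2, 26.9 and 27.0 with nanoparticles (log2 fold change 0.03 ± 0.0519 SE, adjusted p = 0.65). Its groups were apart by a small margin. Both reversed to -0.25 and -0.16 when log2 values were corrected for GC content and length.

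Mrpl4 and Mrpl20, core proteins with bacterial counterparts and among the most abundant, did not pass. Mrpl4 had 115, 115 and 101 FPKM in PBS and 111.6, 101 and 89.2 with nanoparticles (adjusted p = 0.16). Mrpl20 had 109.9, 115 and 102 FPKM in PBS and 104, 104 and 78.3 with nanoparticles (adjusted p = 0.10). Their groups overlapped, and nanoparticle replicate 3 was lowest in each. With the replicate number as a block both passed, with adjusted p of 0.021 for Mrpl4 and 0.019 for Mrpl20. The block also brought past the threshold Mrpl27 (0.038), Mrpl53 (0.037), Mrpl48 (0.027), Mrps33 (0.020) and Mrps34 (3.7e-03), which made 28 members higher and 31 lower.

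**Figure D3:**
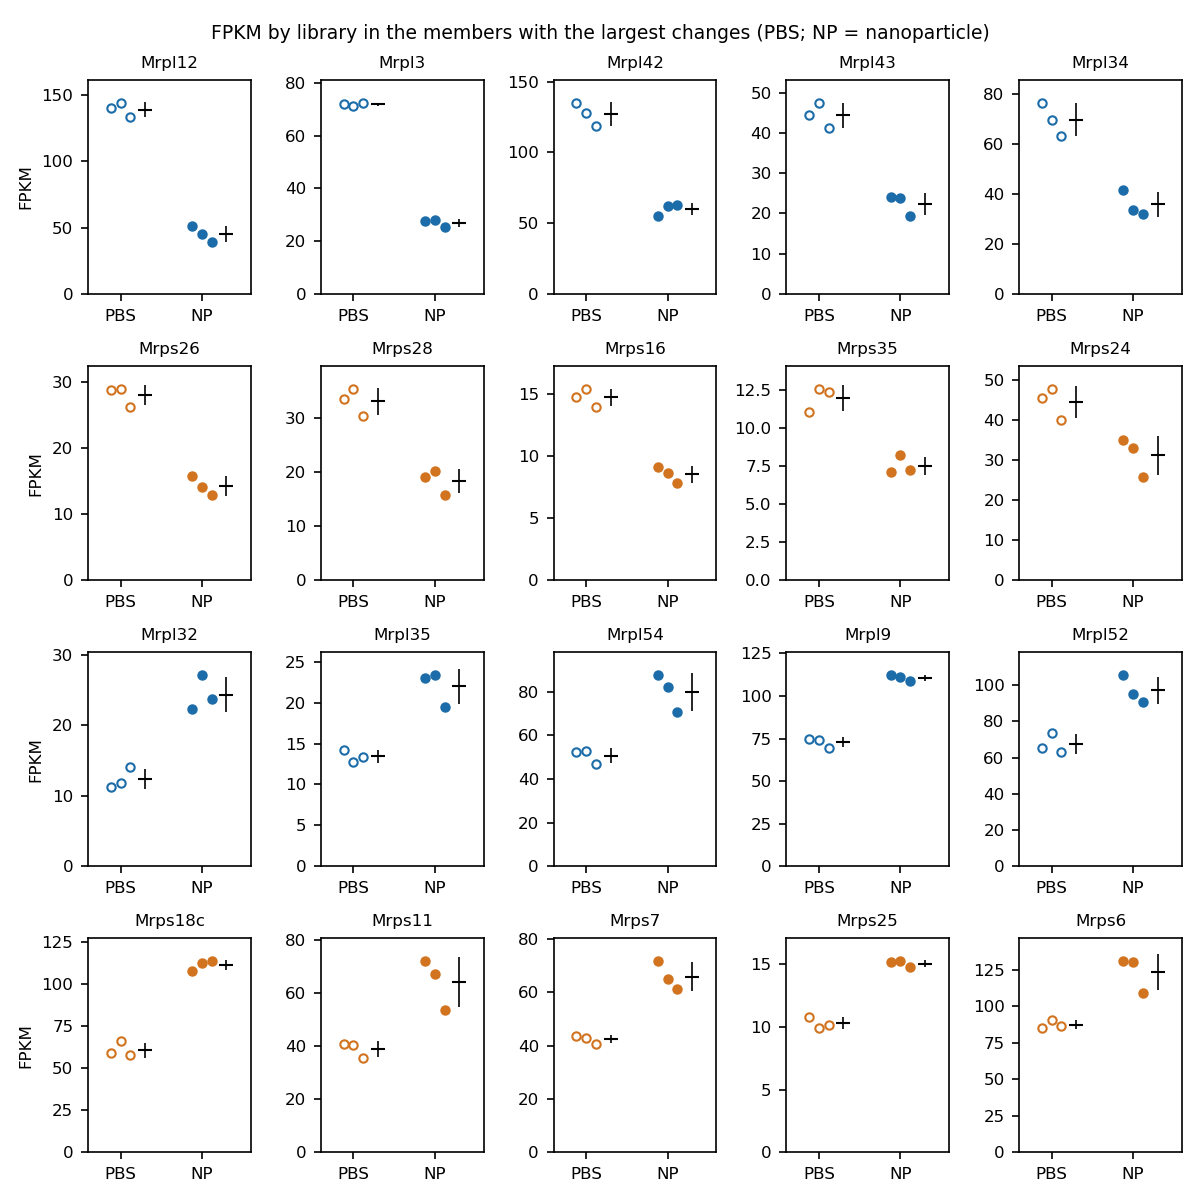
FPKM in each library for the 5 large and 5 small subunit genes with the largest fall (upper 2 rows) and rise (lower 2 rows) past the threshold, PBS as open and nanoparticle as filled points, with mean and SD in black; every y axis starts at 0. In none of the 20 panels do the groups overlap.

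The small subunit showed its largest rises among proteins of the platform, the part that faces the messenger RNA exit. Mrps18c, one of 3 mammalian genes of the bacterial S18 family, lies on chromosome 5, 100798627 to 100804471 (GRCm38, plus strand). Its levels were 58.6, 65.8 and 57.5 FPKM in PBS and 107.6, 112 and 113 with nanoparticles. All treated libraries lay well above all PBS libraries (log2 fold change 0.86 ± 0.0624 SE, adjusted p = 8.5e-07).

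Mrps6, its neighbour in the ribosome, rose from 85.1, 90.6 and 86.6 FPKM to 131, 130.2 and 109 (log2 fold change 0.49, adjusted p = 1.9e-04) and was the most abundant small subunit gene with nanoparticles. Mrps11, also of the platform, rose from 40.7, 40.6 and 35.6 FPKM to 72.1, 67.2 and 53.8 (log2 fold change 0.70, adjusted p = 1.4e-04). Groups were apart for both, with nanoparticle replicate 3 the lowest treated library. Of the other platform genes taken after values were seen, Mrps15 (-0.06) and Mrps21 (0.04) did not pass; Mrps15 was called lower with median-ratio scaling.

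In the head of the small subunit Mrps7, a core RNA-binding protein, rose from 43.6, 42.7 and 40.7 FPKM to 71.5, 64.9 and 61.1 (log2 fold change 0.62, adjusted p = 1.5e-05). Mrps14 rose by 0.38 (adjusted p = 0.030), on PBS values of 32.5, 22.2 and 34.8 FPKM and treated values of 39.6, 40.3 and 35.8. PBS replicate 2 stood apart there, and without that library the change was 0.19 and no longer passed (adjusted p = 0.0501), nor did it without nanoparticle replicate 1 (0.36) or 2 (0.35). With upper quartile or median-ratio scaling, or after correction for GC content and length, it did not pass either. Mrps9 and Mrps10 did not pass, at -0.09 each, and were called lower with upper quartile scaling. These head genes were taken after values were seen and do not cover the whole head. Mrps24, also of the head, fell and is given below.

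Mrps25, a mitochondria-specific subunit, rose from 10.8, 9.91 and 10.2 FPKM to 15.2, 15.2 and 14.8 (log2 fold change 0.51, adjusted p = 4.4e-05). Its groups were tight and apart. Exons of Mrps25 overlap 4590 bases of Nr2c2 on the opposite strand, and those of Mrps7 overlap Gga3 and Mif4gd, so these levels are uncertain.

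The 5 largest falls in the small subunit were of Mrps26, Mrps28, Mrps16, Mrps35 and Mrps24. Mrps26, mitochondria-specific, went from 28.8, 28.9 and 26.2 FPKM to 15.8, 14.1 and 12.9 (log2 fold change -0.93 ± 0.0803 SE, adjusted p = 3.2e-06). Mrps28, related to a bacterial small subunit protein, went from 33.6, 35.3 and 30.3 FPKM to 19.1, 20.1 and 15.7 (log2 fold change -0.82, adjusted p = 2.4e-05). The treated libraries were below every PBS library for both.

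Mrps16, a conserved protein needed for small subunit assembly, went from 14.8, 15.4 and 14.0 FPKM to 9.14, 8.63 and 7.80 (log2 fold change -0.73). Mrps35, mitochondria-specific, went from 11, 12.5 and 12.3 FPKM to 7.11, 8.20 and 7.21 (log2 fold change -0.61). Mrps24, the counterpart of a bacterial head protein, went from 45.5, 47.6 and 39.9 FPKM to 34.9, 32.9 and 25.7 (log2 fold change -0.50). None of the 3 had overlapping groups, and their adjusted p-values were 1.2e-05, 6.7e-05 and 2.0e-03. Mrps16 and Mrps26 have near-identical pseudogenes in the annotation, and Mrps24 shares 226 exonic bases with Urgcp on the same strand.

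The S18 family shows how 3 related genes differed. Mrps18a, whose product sits in the large subunit while its relatives sit in the small one, had 70.8, 71.5 and 61.8 FPKM in PBS and 91.4, 79.5 and 74.0 with nanoparticles (log2 fold change 0.26, adjusted p = 0.020). Mrps18b had 57.4, 53.4 and 53.2 FPKM in PBS and 60.8, 58.4 and 56.0 with nanoparticles (log2 fold change 0.09, adjusted p = 0.16). Only Mrps18c kept its call in all 14 alternative settings. The call of Mrps18a was lost with upper quartile and median-ratio scaling. It was also lost without PBS replicate 3 (0.19) or nanoparticle replicate 1 (0.17). Correction for GC content and length without the replicate block lost it as well, and Mrps18b reversed to -0.12 after that correction.

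Mrps30, also a large subunit protein by structure, rose by 0.23 (adjusted p = 0.011), from 15.9, 17.1 and 16.0 FPKM to 18.7, 20.9 and 18.5. That call was lost with upper quartile and median-ratio scaling, after correction for GC content and length, and without nanoparticle replicate 2 (0.18). Mrps36, of the 2-oxoglutarate dehydrogenase complex, did not pass (-0.11, adjusted p = 0.21), with 35.3, 41.4 and 34.9 FPKM in PBS and 34.7, 36.2 and 31.9 with nanoparticles. Its groups overlapped. Mrps21 was the most abundant small subunit gene in PBS and overlapped fully, with 109.6, 118 and 108.5 FPKM against 116, 123 and 106. Mrps31, mitochondria-specific, ranged from 15.8 to 17.8 FPKM in PBS and from 15.8 to 18.7 with nanoparticles.

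Other small subunit genes moved less than those with the largest rises and falls. Mrps22, Mrps12 and Mrps14 rose by 0.33, 0.30 and 0.38, and Mrps5, Mrps2, Mrps27 and Mrps23 fell by 0.27, 0.23, 0.20 and 0.14. Mrps27 did not pass without PBS replicate 3 (-0.19), nor Mrps23 without PBS replicate 1 (-0.14), PBS replicate 2 (-0.11), nanoparticle replicate 2 (-0.15) or nanoparticle replicate 3 (-0.13). Mrps12, a protein of the decoding centre, lost its call with upper quartile and median-ratio scaling and after correction for GC content and length. Mrps34, Mrps33 and Mrps17 were not called. Mrps34 had the widest spread among treated libraries, at 46.1, 35.7 and 24.9 FPKM, and its exons overlap Mapk8ip3 and Nme3.

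Genes classed as having a counterpart in bacteria and genes classed as mitochondria-specific were both mixed. Mrps18a and Mrps18b, although of the bacterial S18 family, were placed in the mitochondria-specific class. Of 46 members with a bacterial counterpart 15 rose and 18 fell (median -0.09), and of 31 mitochondria-specific members 10 rose and 9 fell (median 0.04). Direction was also set against level: of the 26 members most abundant in PBS 5 rose and 11 fell (median -0.14), while 11 rose and 7 fell among the 26 of middle level and 9 rose and 9 fell among the 26 lowest. Over the 78 genes, which share libraries, log2 fold change had a Pearson r of -0.26 with log2 PBS level, -0.15 with GC content and -0.01 with log2 length. The r with level uses PBS values on both axes, so the measures are not independent.

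Libraries within a group were close for most members. The median coefficient of variation was 5.01% in PBS and 6.93% with nanoparticles, against 5.72% and 7.40% over all genes tested. Nanoparticle replicate 3 was the lowest of the 3 treated libraries for 60 of 78 members (76.9%), and for 34.1% of all genes tested. Across the 78 members its difference from the other treated libraries had an r of -0.46 with GC content. Without that library 25 members were higher and 25 lower, and their median log2 fold change was -0.02. Sequence shared with other genes limits some levels: 16 members have a pseudogene of at least 95% identity over 200 bases or more, among them Mrps18b, Mrps21, Mrps25 and Mrps36, and Mrps6 shares 159 exonic bases with Slc5a3.

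Promoters of the family carry motifs of factors known to drive nuclear genes for mitochondrial proteins. RefSeq promoter windows (GRCm38.p6, 250 bases before to 50 after the start) matched 69 of 78 members. Both strands were searched for the NRF1 motif, the ETS motif CCGGAAG, bound by the GABP factor, and the YY1 motif AAGATGGC. The NRF1 motif was in 13 members (18.8%, against 5.19% of all genes with a promoter and 13.0% of tested genes), the ETS motif in 26 (37.7%, against 9.93% and 22.9%) and the YY1 motif in 12 (17.4%, against 3.19% and 5.98%). A match is a description of letters and not a bound site.

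The same motif stood before genes that fell and genes that rose. The 150 bases before the start are shown for 2 members with an NRF1 match, Mrpl12 that fell and Mrpl9 that rose, and for 2 with an ETS match, Mrpl3 that fell and Mrpl52 that rose, with the match in capitals. They lie at chr11:120484487-120484636, chr3:94443186-94443335, chr9:105053118-105053267 and chr14:54426759-54426908, all on the plus strand of GRCm38.p6.
Mrpl12: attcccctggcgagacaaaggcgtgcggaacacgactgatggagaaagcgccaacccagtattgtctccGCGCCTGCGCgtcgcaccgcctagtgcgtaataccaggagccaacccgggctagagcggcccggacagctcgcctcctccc
Mrpl9: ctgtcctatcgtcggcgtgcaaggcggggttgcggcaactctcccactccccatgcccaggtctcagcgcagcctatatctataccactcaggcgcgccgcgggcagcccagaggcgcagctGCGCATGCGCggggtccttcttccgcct
Mrpl3: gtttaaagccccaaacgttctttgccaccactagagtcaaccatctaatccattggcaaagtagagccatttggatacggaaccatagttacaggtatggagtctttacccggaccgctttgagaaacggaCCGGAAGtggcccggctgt
Mrpl52: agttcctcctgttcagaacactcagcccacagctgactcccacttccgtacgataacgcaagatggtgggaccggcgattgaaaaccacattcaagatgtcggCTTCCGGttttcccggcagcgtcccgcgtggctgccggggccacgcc
The NRF1 match begins 81 bases before the start in Mrpl12 and 28 in Mrpl9, and the ETS match 19 bases before it in Mrpl3 and 47 in Mrpl52. The matches in Mrpl12 and Mrpl52 read on the other strand.

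Calls over the members with each motif were likewise mixed. Of the 13 with NRF1, 3 rose and 2 fell (median 0.03); of the 26 with ETS, 6 rose and 11 fell (median -0.15); of the 12 with YY1, 8 rose and 4 fell (median 0.28). Among members with a promoter window but without the motif, 20 rose and 21 fell for NRF1, 17 and 12 for ETS, and 15 and 19 for YY1. Over all tested genes with the motif the medians were 0.07 for NRF1, 0.17 for ETS and 0.14 for YY1. The transcripts of the factors themselves differed. Nrf1 had 19.6, 18.8 and 17.5 FPKM in PBS and 5.64, 5.46 and 6.94 with nanoparticles (log2 fold change -1.49 ± 0.0903 SE, adjusted p = 2.5e-07). Its groups were far apart. Gabpa, the DNA-binding chain of GABP, was level at 18.2 and 18.2 FPKM, and Yy1 rose by 0.27 (adjusted p = 5.8e-03).

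Genes that work with the mitochondrial ribosome were read from the same fit, list by list. Of 5 further ribosome subunits with other names none rose and 2 fell, Ptcd3 (-0.76) and Dap3 (-0.27), while Aurkaip1, Chchd1 and Gadd45gip1 did not pass. Among 23 tested factors for assembly and RNA modification 7 rose and 11 fell (median -0.06). Nsun4, a ribosomal RNA methyltransferase, rose from 6.35 ± 0.285 to 17.7 ± 1.32 FPKM, and Mtg1, an assembly GTPase, fell from 20.1 ± 1.6 to 6.34 ± 0.644 FPKM (SD, n = 3 each). Trmt61b was not matched in the table.

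Translation factors fell more often than they rose, with 9 lower and 3 higher of 13 (median -0.29). Tsfm, the exchange factor of the elongation factor Tufm, went from 47.9, 51.2 and 44.8 FPKM in PBS to 15.7, 12.6 and 12.7 (log2 fold change -1.74 ± 0.0890 SE, adjusted p = 7.5e-08). The means were 3.51-fold apart, with no overlap. Guf1, an elongation factor homolog, fell by 1.34 and Mtif2, which starts translation, rose by 0.81. The mitochondrial aminoacyl-tRNA synthetases, which charge transfer RNAs, had 10 lower and 2 higher of 17 (median -0.53), with Vars2 at -1.56 and, against the majority, Lars2 at 0.45.

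Regulators and products were as varied. Of 8 tested nuclear regulators 2 rose and 5 fell (median -0.26): Nrf1 and Ppargc1b (-1.08) fell, Myc rose from 2.02 ± 0.152 to 5.33 ± 0.693 FPKM (SD, n = 3 each), and Ppargc1a was below the filter. Of 10 genes for mitochondrial transcription and genome upkeep 2 rose and 4 fell (median -0.02), with the topoisomerase Top1mt at -0.76 and Twnk at 0.37. Of the 13 messenger RNAs that mitochondrial DNA encodes, which this ribosome translates, 3 rose and 6 fell (median -0.17), mt-Nd3 at -1.38, mt-Cytb at -0.76 and mt-Co1 at 0.46. After correction for GC content and length, 1 was higher and 10 lower (median -0.71).

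The nuclear partners of those products, 80 tested subunits of oxidative phosphorylation, had 22 higher and 26 lower (median -0.05). That near balance, too, holds for the values as deposited: 12 were higher and 38 lower with upper quartile scaling, 11 and 38 with median-ratio scaling, and 12 and 56 after correction for GC content and length. Atp5mc2 fell by 1.15 and Ndufb1, which overlaps an opposite-strand gene, rose by 1.41. Of the cytosolic ribosomal proteins 60 of 82 tested were lower and 2 higher (median -0.38). Rpl22l1 fell by 2.00 and Rps4x by 0.79. Rpl29 rose by 0.23, a call lost with upper quartile and median-ratio scaling and after correction for GC content and length. Cytosolic ribosomal protein genes have many processed copies, so single members of that list are uncertain. No test of the difference between the lists was run.

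**Figure D4:**
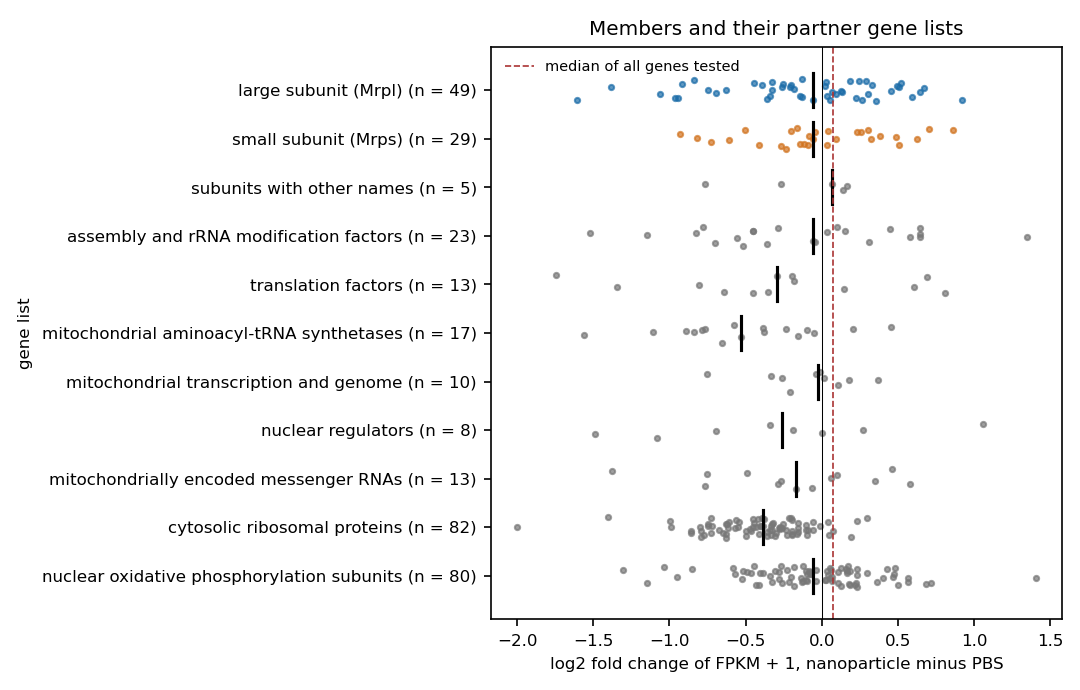
Log2 fold change of FPKM + 1 (x axis) for each tested gene of the 2 subunits and of 9 partner lists, black bars for list medians and a dashed line for the median of all genes tested, 0.08. The medians of both subunits are near 0, at -0.05 and -0.06, and that of the cytosolic ribosomal proteins is -0.38.

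Many of the members share their start region with another gene. For 30 of 78 members (38.5%) a tested gene on the other strand began within 1000 bases of the member's start, against 16.2% of the other tested genes. These are 29 distinct pairs. Both genes passed in 15 of them, 10 with the same direction and 5 opposite (66.7% the same, against 59.8% of 473 pairs without a member). Mrpl46 and Mrps11, on chromosome 7 with starts 412 bases apart, are neighbours within the family and both rose, by 0.49 and 0.70. Their exons overlap by 173 bases.

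Mrps18c starts 29 bases from the helicase gene Helq, and the genes rose by 0.86 and 0.66. Mrpl40 starts 175 bases from the histone chaperone gene Hira, and they fell by 0.69 and 0.98. Mrpl18 and the chaperonin gene Tcp1 also fell together, but their exons overlap by 141 bases on opposite strands. Mrpl21 and Ighmbp2, which both rose, overlap by 117 bases. Reads may be shared within such pairs, since the use of strand in counting is not stated. In the opposite case Mrpl43 fell and Twnk rose, and Mrpl49 rose by 0.33 while Fau, a cytosolic ribosomal protein gene 59 bases away, fell by 0.33. Over the 29 pairs the r of the log2 fold changes was 0.28, a description over genes that share libraries.

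**Figure D5:**
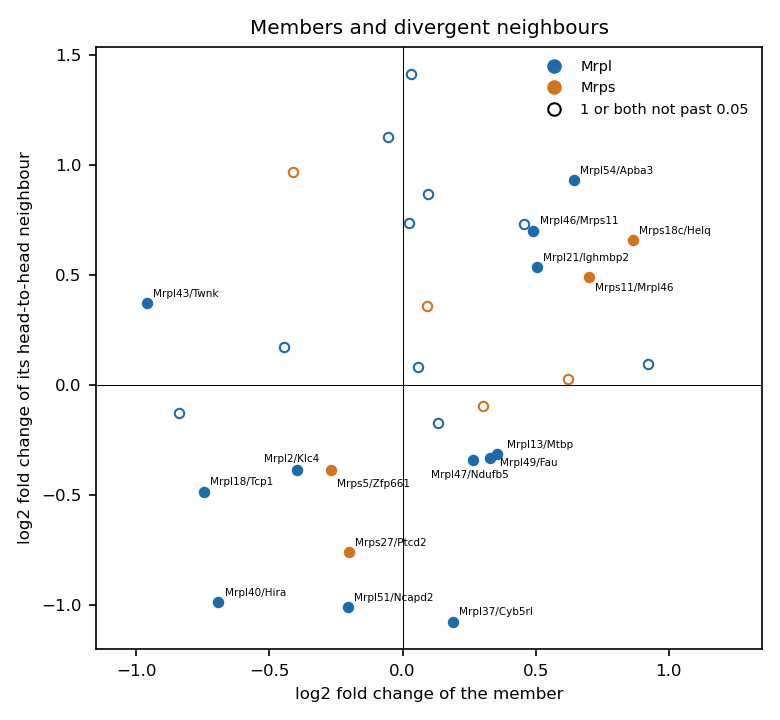
Log2 fold change of FPKM + 1 of each member (x axis) against that of the gene starting within 1000 bases on the other strand (y axis), blue for Mrpl and orange for Mrps, filled where both genes passed. Of the 16 filled points 11 lie in the quadrants of equal direction, with the pair Mrpl46 and Mrps11 drawn from each side.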

How the data were processed

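RNA from the 6 libraries was isolated with TRIzol and made into mRNA libraries by a BGI protocol, per the labels' protocols. The submitters' processing notes name STAR and featureCounts, without versions, and GRCm38 and mm10 as builds. The values the authors deposited are read here as FPKM, one column per library, a unit inferred from the values because the header names none. The column matched to PBS replicate 1 carries a suffix of unstated meaning. Whole fragments could not be recovered from the values, so depth is unknown and no count test was run. The 509 unnamed rows of 22614 (0.427% to 0.497% of FPKM) were left out.

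Genes averaging 1 FPKM or more entered limma 3.58.1 (R 4.3.3) on log2(FPKM + 1) with an intensity trend and treatment as the only term, two-sided, with Benjamini-Hochberg adjustment over 10229 genes and a threshold of 0.05. The log2 scale with that pseudocount understates the change of low genes. The fit was also run on simulated data with known changes, only as a check of the code. That run says nothing about the calls reported here. Tables and plots used Python 3.11.15, pandas 2.3.3 and matplotlib 3.10.9. Gene models came from GENCODE M21 (GRCm38).

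Members and lists were chosen with earlier results of these data known. The genes named were, per subunit, the 5 largest changes in each direction with groups that did not overlap, the 3 most abundant, the 2 smallest changes, and Mrps18a, Mrps18b, Mrps18c, Mrps30 and Mrps36. In each partner list they were the 2 smallest p-values and the most significant gene against the majority. One gene taken by this rule is not reported here. Others were named after values were seen. Mrpl47 was moved to the genes with a bacterial counterpart, also after values were seen.

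The labels give replicate numbers 1 to 3 in both groups. Same-numbered libraries deviated together (r = 0.13, 0.11 and 0.35 over genes), each above the preset 0.1, so the numbers were taken to pair the libraries. PBS replicate 2 and nanoparticle replicate 1 also had an r of 0.13, so that pairing is not clear-cut. The fit without the block is reported. Alternatives were the pseudocount, the filter, 3 scalings, the replicate block, each library left out and, added after seeing the data, a correction for GC content and length.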

Additional observations from a re-analysis of the deposited data

How the results depend on the processing

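Of the 52 members called, 39 (16 higher, 23 lower) kept call and direction in all 14 alternative settings, and 13 lost the call in at least 1. Of the 26 not called, 16 passed in some setting. Depth is unknown, so what it limits could not be computed.

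The replicate block, used because the numbers were taken to pair the libraries, made 59 members pass. The 7 changes are given with the results, and it changed no other member's call. All reversals came from the correction for GC content and length: it gave -0.011 for Mrpl1, -0.25 for Mrpl14, -0.15 for Mrpl24, -0.13 for Mrpl27, -0.25 for Mrpl30, -0.16 for Mrpl39, -0.20 for Mrpl50, -0.14 for Mrpl53, -0.12 for Mrps18b, -0.28 for Mrps21, -0.20 for Mrps31 and -0.020 for Rpl29, without and with the block. Mrpl57, at -0.21, was counted as reversed only with the block, although the block leaves the estimates themselves unchanged. That correction left 16 members higher and 48 lower (50 lower with the block), 31 large subunit genes lower (32 with the block), 6 small subunit genes higher and 17 lower (18 lower with the block). Small subunit genes numbered 6 higher and 14 lower with upper quartile scaling, and 6 and 15 with median-ratio scaling. Over all partner lists 43 genes were higher in the reported fit, 28 with upper quartile scaling, 27 with median-ratio scaling, 27 with the composition correction and 26 once the block was added. The cause was not tested. With each library left out in turn, the large to small ratio changed by -0.333 to -0.368.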
